A study of Mus musculus with 6 samples.

Results

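The genes described here are 10 cartilage genes chosen by name: the transcription factor genes Sox9, Sox5 and Sox6, the proteoglycan genes Acan and Vcan, the link protein gene Hapln1, the matrilin genes Matn2 and Matn4, and the genes of the small matrix or secreted proteins Chad and Cytl1. The count table held a row for 8 of the 10, among 20071 Ensembl IDs, and Acan and Cytl1 were not analysed here. Bulk poly(A) RNA-seq was carried out on mesenchymal stem cells (MSCs) from the femurs of 6-week-old mice on a C57BL/6J background after 7 days of osteogenic induction. The medium contained ascorbic acid at 50 μg/mL, β-glycerophosphate at 5 mM and dexamethasone at 100 nM. Control cells (WT in the sample labels, 3 libraries) came from Pcif1fl/fl mice, and knockout cells (Pcif1 CKO, 3 libraries) from Prrx1-Cre;Pcif1fl/fl mice, so that both groups carried the floxed allele. They are called control and knockout libraries below, as labelled. Prrx1-Cre is active in limb mesenchyme and its derivatives, and blood cells in a marrow culture keep Pcif1. The labels do not say whether the libraries of a group came from separate mice or cultures, and the series' design text speaks of biological duplicates although there are 3 libraries per genotype, so n = 3 counts libraries and p-values measure the spread between them, which may be technical in part.

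SOX9 is the transcription factor that starts the cartilage program in mesenchymal progenitors, and SOX5 and SOX6 act with it to switch on matrix genes. The matrix of cartilage is built on aggrecan, a large proteoglycan tied to hyaluronan by the link protein HAPLN1. Versican, the product of Vcan, is a related hyaluronan-binding proteoglycan of early mesenchyme and many soft tissues, matrilins connect matrix fibres, and chondroadherin (Chad) is a leucine-rich protein of cartilage. Since the same progenitors can form bone, cartilage or fat, the comparison asks whether the cartilage genes differed in the cells labelled Pcif1 CKO.

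PCIF1 methylates mRNAs whose first transcribed base is an adenosine, so the annotated first base of the member genes is shown. RefSeq starts on GRCm38.p6 were at hand for 6 of the 8 genes, and Sox9 and Matn2 had no entry. Each line gives 30 bases, 5′ to 3′ on the gene's strand, with the first transcribed base in capitals at base 16.
Vcan (chr13:89742498-89742527, minus strand): cctttccgcccctccGcctgtttccaagct
Matn4, first start (chr2:164405146-164405175, minus strand): gtccgagagtttgacAaatgaggatgggtt
Matn4, second start (chr2:164404804-164404833, minus strand): ggagtgtcgccgcccGactccagctgtagc
Sox5 (chr6:143947092-143947121, minus strand): gcaacaggaatggttCttacaagcatagaa
Sox6, outermost start (chr7:116038730-116038759, minus strand): ctcccttcggctctcActgcagccctgggt
Chad (chr11:94565032-94565061, plus strand): ggagacccgagagtcGaggacttgtcgctg
Hapln1 (chr13:89540621-89540650, plus strand): agttaggctgtaattAgaggatctgggagg
An A stood first at 6 of the 12 annotated starts of these genes, 4 of them among the 6 starts of Sox6, against 34.4% of all 32851 starts in the table. Counts per gene do not show which start was used, and GENCODE places some starts elsewhere.

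The targeted gene was checked first. Pcif1 was at 42.8, 41.7 and 39.3 CPM in control replicates 1 to 3 and at 39.2, 37.8 and 39.7 CPM in knockout replicates 1 to 3, where CPM are counts per 1000000 counts scaled by the TMM factors. The ranges overlapped, and the log2 fold change was -0.085 (adjusted p = 0.645), so gene-level counts, which do not separate the floxed exons from the rest, do not show the deletion, and the genotypes rest on the labels. The libraries held 22689775 to 28227696 counts in the control and 20258209 to 22530242 in the knockout group. Control replicate 3 stood apart from the other libraries, with 3.63% of its counts on mitochondrial genes against 1.40% to 1.57% elsewhere, so values without it are given where it moves a result. Xist was at 232 to 443 CPM in control and 0.722 to 1.79 CPM in knockout libraries, and Ddx3y, a Y-linked gene, at 48.4 to 62.2 CPM in control and 99.1 to 104 CPM in knockout libraries. Each control library thus held both Xist and Y-linked RNA, the knockout libraries were nearly without Xist, and the sex makeup of the libraries and the genotype cannot be told apart. Markers of other cell types also differed between the genotypes, where 4.51% of all genes tested were lower and 2.88% higher at an adjusted p under 0.05. The 8 stromal markers summed to 3699 to 4212 CPM in control and 1393 to 1531 CPM in knockout libraries. Of the 8, 4 were lower, Cxcl12, Lepr and Eng among them, and 2 were higher, Thy1 and Ly6a. Cxcl12 carried the drop of this sum, and the other 7 markers summed to 804 to 900 CPM and 895 to 924 CPM, with overlapping ranges. Every knockout library was below every control library for 4 of these 7 and above for 2. Over all genes tested the shares were 15.7% and 15.0%. Of 7 tested adipocyte markers 5 were lower, but 3 of the 5, Plin1, Cfd and Cidec, had 0 or 1 count in every knockout library, passed the expression filter through the control libraries alone and so had to be lower. Of 7 tested osteoblast markers 3 were lower, Sp7, Alpl and Ibsp, and 1 was higher, Col1a1. The untested Bglap, a late osteoblast marker, had at most 5 counts in any library. The 8 macrophage and monocyte markers summed to 27751 to 29873 and 27225 to 30689 CPM and none passed. Lyz2 made up most of this sum, and the other 7 summed to 4575 to 4984 and 4322 to 5245 CPM. Among these 7, every knockout library was above every control library for Cd14, Itgam and Adgre1 and below for Csf1r, as for 15.0% and 15.7% of all genes tested. Among pericyte and smooth muscle markers 2 of 8 were lower, and none of the 8 endothelial markers or the 1 erythroid marker tested passed. The part of these shifts in the results below was not tested. In such bulk cultures, fewer cells of a type and less RNA per cell cannot be told apart.

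None of the cartilage members was called between the genotypes. Among the 6 that passed the expression filter, edgeR's quasi-likelihood test called 0 lower and 0 higher at a 2-fold change and an adjusted p under 0.05, where 2.50% of the 13733 genes tested were called lower and 1.03% higher. With no fold threshold the count was still 0, where 4.51% of all genes were lower and 2.88% higher. At an unadjusted p under 0.05 in the same test the count was 1, Sox6, and the share of all genes at that threshold was not counted. Sox6 passed the filter through the knockout libraries alone, so nothing is drawn from this count. DESeq2 and limma-voom also called 0 members at an adjusted p under 0.05. The median log2 fold change (knockout minus control throughout) was -0.017 over these 6 genes and 0.0017 over all genes tested. For 5 of the 6, the 95% interval of the log2 fold change lay between -1 and 1, so a change of 2-fold in either direction was outside it.

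**Figure D1:**
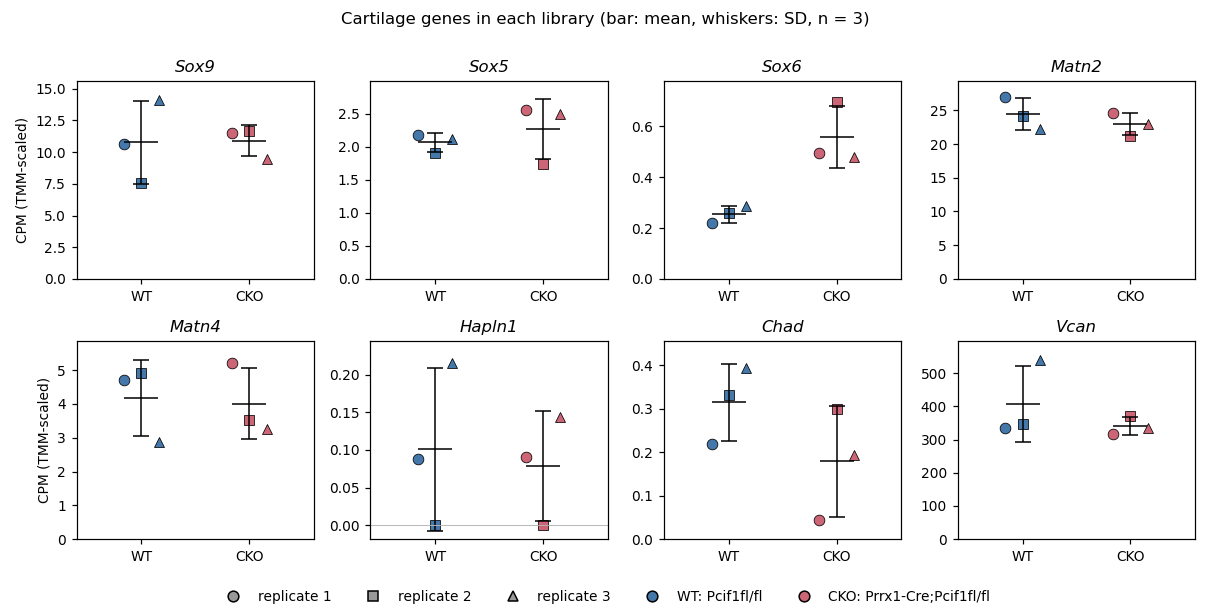
Level of each of the 8 genes in CPM (vertical axis, linear, 1 panel per gene with its own scale) in the 3 Pcif1fl/fl (WT, blue) and 3 Prrx1-Cre;Pcif1fl/fl (CKO, red) libraries, with marker shape for the replicate number, a bar for the mean and whiskers for the SD (n = 3). The groups overlap in 7 of the 8 panels. In Sox6 every CKO library is above every WT library, and in Vcan WT replicate 3, at 540 CPM, is above the other libraries.

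Positions below are those of GENCODE M21 on GRCm38 (mm10). Sox9 (ENSMUSG00000000567, chromosome 11, 112782224 to 112787760) measured 10.6, 7.57 and 14.1 CPM in the controls and 11.5, 11.7 and 9.48 CPM in the knockouts (replicates 1 to 3 in order, as in all lists below). The knockout libraries all fell inside the range of the controls. The means were 10.8 ± 3.28 CPM (SD, n = 3) and 10.9 ± 1.23 CPM (SD, n = 3), and the log2 fold change was 0.017 (SE 0.22, 95% interval -0.50 to 0.53, Benjamini-Hochberg adjusted p = 0.978, edgeR). The sign changed with the libraries used, at -0.18 without control replicate 2, the lowest control, and 0.27 without replicate 3, the highest (adjusted p = 0.248). It was also -0.020 without knockout replicate 1 and -0.033 without replicate 2, and with total-count scaling it was -0.0013.

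Sox5 (ENSMUSG00000041540, chromosome 6, 143828425 to 144781977), a partner of SOX9, was at 2.18, 1.91 and 2.12 CPM in controls and 2.57, 1.74 and 2.50 CPM in knockout libraries. Knockout replicate 2 held the lowest value of all 6 and replicate 1 the highest, so the groups were not separate. The log2 fold change was 0.14 (SE 0.23, 95% interval -0.39 to 0.66, adjusted p = 0.772). Antisense to Sox5, the gene Sox5os1 shares 9.25% of the exonic bases, and whether strand was used in counting is not given in the sources used here. Without knockout replicate 2 the log2 fold change was 0.29, without replicate 1 it was 0.044, without replicate 3 it was 0.066, and without control replicate 2 it was 0.082, with adjusted p-values from 0.611 to 0.966.

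Sox6 (ENSMUSG00000051910, chromosome 7, 115470872 to 116038796), the other SoxD partner of SOX9, was near the floor, taken as 3 counts or fewer in every library of a group. Its raw counts were 5, 7 and 8 in the control libraries and 11, 14 and 10 in the knockout libraries, or 0.218, 0.257 and 0.287 CPM against 0.495, 0.697 and 0.481 CPM. Every knockout library was above every control library, which held for 15.0% of all genes tested. The log2 fold change was 1.10 (SE 0.39, 95% interval 0.20 to 2.00, unadjusted p = 0.0219, adjusted p = 0.147), so it was not called. Sox6 passed the filter, which asks for about 0.442 CPM in 3 libraries, through the knockout libraries alone, and a gene kept in this way had to be higher there. The adjusted p ranged from 0.14 to 0.399 over the alternatives, and without knockout replicate 2 the log2 fold change was 0.92.

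The remaining SoxD and SoxE genes gave no call either. Sox13, the third SoxD gene, had means of 2.82 ± 0.126 and 2.00 ± 0.573 CPM (SD, n = 3) in control and knockout libraries, with every knockout library below every control, as for 15.7% of all genes tested, and a log2 fold change of -0.50 (adjusted p = 0.286). Sox8 had 0 to 5 counts and Sox10, a neural crest and glial factor, 0 to 11 counts per library, and neither passed the filter. Of the genes of this family, Sox9 was thus the most abundant per length in both genotypes.

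Vcan (ENSMUSG00000021614, chromosome 13, 89655312 to 89742509) was the most abundant of the 8 genes per length. It measured 335, 346 and 540 CPM in the controls and 317, 371 and 334 CPM in the knockouts. Control replicate 3 was above all other libraries, and the remaining 5 lay close together. The means were 407 ± 115 CPM (SD, n = 3) and 341 ± 27.5 CPM (SD, n = 3), and the log2 fold change was -0.26 (SE 0.18, 95% interval -0.67 to 0.16, adjusted p = 0.471). Without control replicate 3 it was 0.0025 (adjusted p = 0.988). Myeloid cells can also express versican, and their part in the level of Vcan was not tested.

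Hapln1 (ENSMUSG00000021613, chromosome 13, 89539796 to 89611652), whose product links proteoglycans to hyaluronan and which lies next to Vcan, was at the floor in the knockout and near it in the control libraries. Its counts were 2, 0 and 6 in controls and 2, 0 and 3 in knockout libraries. In the 2 libraries with a count of 0, up to 0.110 CPM in control replicate 2 and 0.149 CPM in knockout replicate 2 would be allowed by counting error. Hapln1 did not pass the filter, and no difference was detectable at this depth.

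Matn2 (ENSMUSG00000022324, chromosome 15, 34306677 to 34436273), a matrilin of many connective tissues, gave the narrowest interval. It was at 26.9, 24.2 and 22.3 CPM in controls and 24.5, 21.3 and 23.0 CPM in knockout libraries, with libraries of both groups interleaved. The log2 fold change was -0.093 (SE 0.12, 95% interval -0.36 to 0.18, adjusted p = 0.699), that is, a ratio between 0.778 and 1.13. Leaving out 1 library moved the log2 fold change between -0.15 and -0.017, and control replicates 3 and 1 set those ends. The value without knockout replicate 2 was -0.040. Of the exonic bases of Matn2, 1.12% overlap an antisense gene.

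Matn4 (ENSMUSG00000016995, chromosome 2, 164389393 to 164405160), another matrilin, was at 4.72, 4.92 and 2.87 CPM in controls and 5.22, 3.53 and 3.27 CPM in knockout libraries. Each group had libraries both above and below 4 CPM, and replicate 3 was the lowest in both. The log2 fold change was -0.051 (SE 0.27, 95% interval -0.67 to 0.57, adjusted p = 0.936). It was -0.26 without control replicate 3 and -0.29 without knockout replicate 1, and it turned positive, to at most 0.091, when any of the other 4 libraries was left out. Of the exonic bases of Matn4, 2.88% overlap the antisense gene Rbpjl. The cartilage-restricted matrilins were near or at the floor: Matn1 had 8, 4 and 5 counts in controls and 2, 0 and 0 in knockout libraries, and Matn3 had 20 counts over the 3 control and 14 over the 3 knockout libraries. Neither passed the filter.

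Chad (ENSMUSG00000039084, chromosome 11, 94565047 to 94569127) had 5, 9 and 11 counts in controls and 1, 6 and 4 in knockout libraries, or 0.218, 0.331 and 0.394 CPM against 0.0450, 0.299 and 0.192 CPM. The groups overlapped in CPM, knockout replicate 1 was the lowest, and the gene did not pass the filter. Without the filter the log2 fold change was -0.84 with a SE of 0.74 (adjusted p = 0.63).

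Per kilobase of annotated exons the 8 genes spanned more than 3 orders of magnitude. In the control libraries, Vcan was at 28.1 ± 7.96, Matn2 at 3.91 ± 0.370, Sox9 at 2.60 ± 0.793 and Matn4 at 0.806 ± 0.219 CPM per kb (SD, n = 3). Next in order were Chad at 0.187 ± 0.0531, Sox5 at 0.144 ± 0.00987, Sox6 at 0.0171 ± 0.00231 and Hapln1 at 0.0171 ± 0.0183 CPM per kb (SD, n = 3). Neighbours in this order did not overlap in their libraries, except Chad with Sox5 and Sox6 with Hapln1. In the knockout libraries the first 4 places were the same, Sox5 stood above Chad, and the ranges of Sox5 and Chad and of Chad and Sox6 overlapped. Exonic length is the union over transcripts, so the level of a gene with long alternative exons, such as Vcan or Sox5, is a lower estimate.

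**Figure D2:**
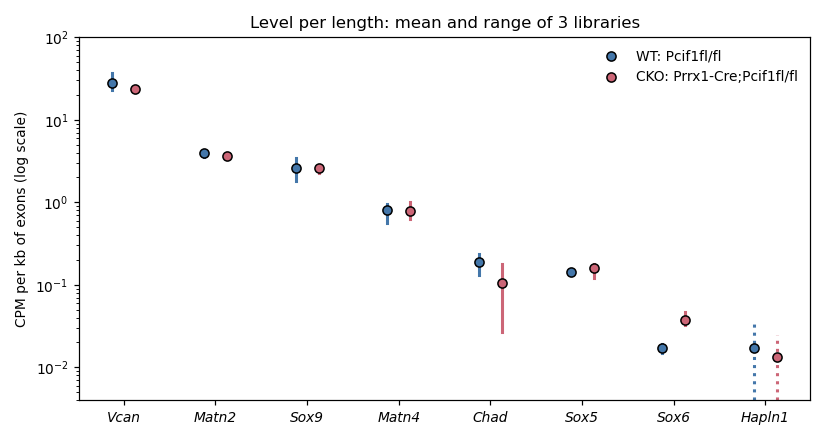
Level per kilobase of exons (vertical axis, CPM per kb, log scale) of the 8 genes, ordered by the mean in Pcif1fl/fl libraries, with points for the mean and lines for the range of the 3 libraries of each genotype (WT blue, CKO red). Dotted lines reach a library with a count of 0. Vcan is at 28.1 and 23.6 CPM per kb, and Sox6 and Hapln1 are below 0.05.

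Other genes of the cartilage program changed in both directions. Of 40 further chondrocyte genes written down as a list, 37 were in the table and 24 were tested. Of these, 6 were lower and 2 higher at an adjusted p under 0.05, 16 did not pass, and the median log2 fold change was 0.011, where 4.51% of all genes tested were lower and 2.88% higher. The number lower was 3 without knockout replicate 1, and the number higher was 8 without control replicate 3 and 1 without knockout replicate 3. At a 2-fold change, 4 were lower and 1 higher, where 2.50% and 1.03% of all genes were. The 4 were Nkx3-2, Fgfr3, Col10a1 and Comp. The gene Nkx3-2, which encodes a repressor that works with SOX9 in early cartilage, was at 2.97, 2.09 and 2.65 CPM in controls and 0.540, 0.299 and 0.866 CPM in knockout libraries, which is a log2 difference of -2.16 (SE 0.36, adjusted p = 0.00876, and 0.0544 without knockout replicate 1). Knockout replicate 2 was under the 0.442 CPM of the filter, which Nkx3-2 passed in all 3 libraries of the control group only. Fgfr3, the FGF receptor of growth plate cartilage, had a log2 difference of -1.69 (adjusted p = 0.00623), and an antisense gene shares 13.9% of its exonic bases.

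Col10a1, the collagen gene of hypertrophic cartilage, fell from 3.35 ± 0.512 to 1.10 ± 0.191 CPM (SD, n = 3), which is a log2 difference of -1.61 (SE 0.24, adjusted p = 0.0052). Comp, which encodes a matrix protein of cartilage and tendon, fell from 23.8 ± 3.55 to 11.1 ± 1.75 CPM (SD, n = 3), which is a log2 difference of -1.10 (SE 0.16, adjusted p = 0.00516). Every knockout library was below every control library for each of these 4 genes, as for 15.7% of all genes tested. Over the 24 tested list genes, every knockout library was below every control library for 6 and above for 8. The shares over all genes tested were 15.7% and 15.0%. Sulf1, a heparan sulfate sulfatase gene, and Tgfbi, which encodes an adhesion protein, had log2 fold changes of -0.45 and -0.41 (adjusted p = 0.0289 and 0.0311). Sulf1 was no longer past the threshold without control replicate 2 or any of the knockout libraries, nor Tgfbi without control replicate 1 or 2 or any of the knockout libraries, and their adjusted p-values with the replicate number as a block were 0.0612 and 0.0938.

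In the other direction, Chst3, the gene of a chondroitin sulfotransferase, rose from 0.656 ± 0.155 to 2.14 ± 0.396 CPM (SD, n = 3), which is a log2 difference of 1.69 (SE 0.29, adjusted p = 0.0105, and 0.0633 without knockout replicate 3). Ccn2, a matricellular growth factor gene, rose by less, with a log2 difference of 0.57 (adjusted p = 0.00702), and an antisense gene shares 23.2% of its exons by length. Col2a1, the main collagen gene of cartilage and a target of SOX9, was at 11.3, 8.23 and 6.38 CPM in controls and 11.7, 16.1 and 13.9 CPM in knockout libraries. Every knockout library was above every control library, but the adjusted p was 0.111 (log2 fold change 0.69, SE 0.22), with 0.0424 from DESeq2. It was also past the threshold without control replicate 1 (0.93, adjusted p = 0.0408) or replicate 3 (0.51, adjusted p = 0.0301). Of the 8 defining chondrocyte markers, 6 were in the table: Col2a1, Col10a1 and Comp were tested, Matn1 and Matn3 were near the floor, and Ucma had 1 count in 1 library. The summed level of the 6 was 31.1 to 43.8 CPM in controls and 24.2 to 29.0 CPM in knockout libraries. Comp carried most of this drop, with means of 23.8 and 11.1 CPM, and Col10a1 fell too. Col2a1 went the other way, with means of 8.64 CPM in controls and 13.9 CPM in knockout libraries. Hapln1, Chad, Matn1, Matn3 and Ucma were thus at or near the floor in both genotypes.

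**Figure D3:**
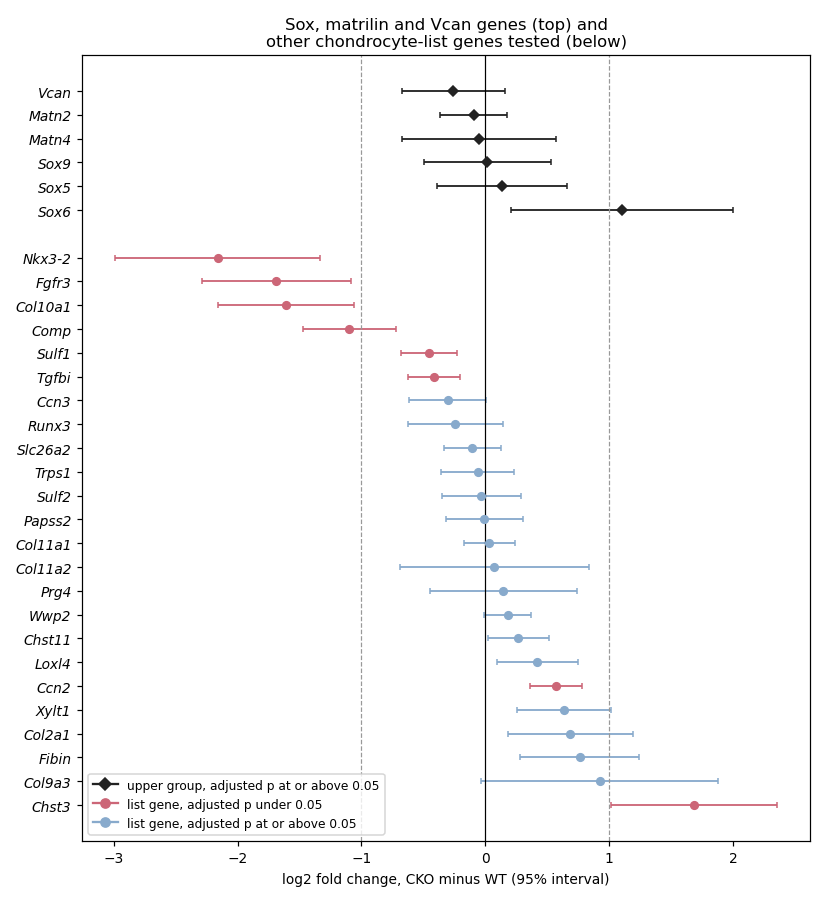
Log2 fold change of Prrx1-Cre;Pcif1fl/fl (CKO) minus Pcif1fl/fl (WT) MSCs (horizontal axis) with 95% intervals, for the 6 tested Sox, matrilin and Vcan genes (diamonds, top) and the 24 tested genes of the chondrocyte list (circles, red for an adjusted p under 0.05). Dashed lines mark a 2-fold change. The intervals of the upper 6 cover 0 except that of Sox6, which is also the widest. Nkx3-2, Fgfr3 and Col10a1 lie below -1 with their whole interval, and Chst3 lies above 1 with its whole interval.

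Genes that act on the hyaluronan and proteoglycan matrix around versican were then compared. Of the 9 tested genes for hyaluronan-binding proteins, Vcan included, 1 was higher and 0 lower at an adjusted p under 0.05, where 2.88% of all genes tested were higher and 4.51% lower. That gene was Cd44, a hyaluronan receptor of stromal and blood cells, at 153, 164 and 224 CPM in controls and 290, 317 and 279 CPM in knockout libraries (log2 fold change 0.71, SE 0.15, adjusted p = 0.0229). The call was lost when control replicate 1 or 2 or any knockout library was left out, with adjusted p-values from 0.058 to 0.108. The macrophage and endothelial receptor genes Stab1, Stab2 and Lyve1 had log2 fold changes of -0.17, -0.64 and 0.45 and did not pass, although Stab1 did without control replicate 3 (-0.26, adjusted p = 0.00256). Neither did Hmmr, Tnfaip6, the brain proteoglycan gene Bcan or the link protein gene Hapln4, whose log2 fold changes were -0.44, -0.67, -0.00020 and -0.11. Hmmr was at -0.20 without control replicate 3, and Tnfaip6 at -0.39 without knockout replicate 2 and -1.003 without knockout replicate 3. The hyaluronan synthase genes Has1, Has2 and Has3 had log2 fold changes of 0.44, 0.14 and 0.38, with adjusted p-values of 0.545 to 0.548. With 1 library left out, these values ranged from 0.16 to 0.64 for Has1, 0.079 to 0.23 for Has2 and 0.17 to 0.60 for Has3, the lowest without knockout replicate 3 for Has1 and without control replicate 1 for the others, and the highest without control replicate 2 for Has1 and without control replicate 3 for the others. Has2, the most abundant of them, was at 24.0 ± 2.64 and 26.4 ± 1.14 CPM (SD, n = 3). Of the 7 tested synthase and hyaluronidase genes, 0 passed an adjusted p of 0.05, against the same shares of all genes.

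A list of genes that act on the turnover of aggrecan and versican held Adamts and matrix metalloproteinase genes and Timp3, which encodes an inhibitor of such proteases. Of the 8 tested genes on this list, Timp3 included, 3 were lower and 0 higher at an adjusted p under 0.05, where 4.51% of all genes tested were lower and 2.88% higher. Adamts15 (chromosome 9, 30899155 to 30922452), a versican- and aggrecan-cleaving protease, was at 5.33, 4.56 and 3.62 CPM in controls and 0.270, 0.199 and 0.385 CPM in knockout libraries. That is 101 to 124 raw counts against 4 to 8, with a log2 difference of -3.95 (SE 0.31, adjusted p = 0.00025). Every knockout library was under the 0.442 CPM of the filter, so Adamts15 was tested through the control libraries alone, and a gene kept in this way had to be lower in the knockout. Adamts9 (chromosome 6, 92772699 to 92943492) fell from 29.9 ± 5.21 to 12.0 ± 0.654 CPM (SD, n = 3), which is a log2 difference of -1.31 (adjusted p = 0.00124), and antisense genes share 12.0% of its exons by length. Adamts5, the main aggrecanase of mouse cartilage, fell by 0.61 on the log2 scale (adjusted p = 0.0147), although not past the threshold without knockout replicate 1 or 3 (adjusted p = 0.0939 and 0.0912). The remaining 5 did not pass: Adamts1, Adamts4 and Mmp13 had log2 fold changes of -0.023, -0.42 and -0.34, and Mmp3 and Timp3 of 1.04 and 0.25. Every knockout library was below every control library for 5 of the 8, Adamts15, Adamts9, Adamts5, Adamts4 and Mmp13, as for 15.7% of all genes tested, and the groups overlapped for Adamts1, Mmp3 and Timp3. This list and Vcan come from the same fit, and the difference between their changes was not tested.

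**Figure D4:**
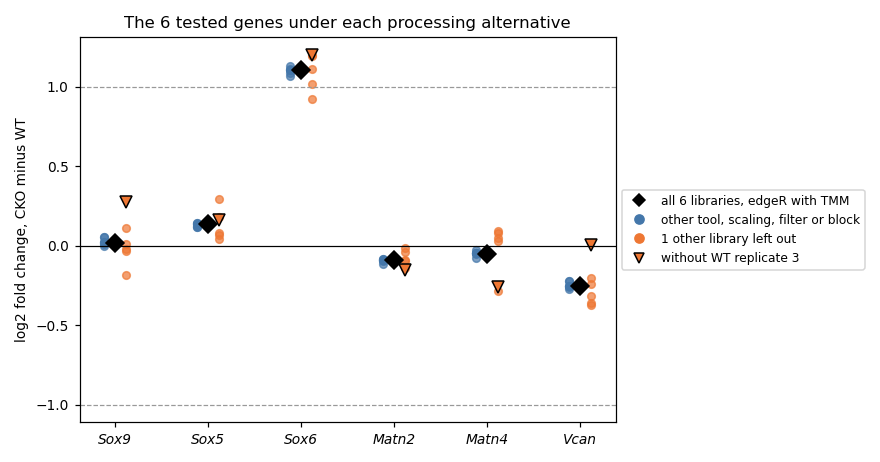
Log2 fold change (vertical axis) of the 6 tested genes with all 6 libraries (black diamonds), under other tools, scalings, filters or the replicate block (blue), and with 1 library left out (orange, with a triangle for Pcif1fl/fl replicate 3). Dashed lines mark a 2-fold change. All values of Sox9, Sox5, Matn2, Matn4 and Vcan lie between -0.38 and 0.29, and Vcan is at 0.0025 without Pcif1fl/fl replicate 3.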

How the data were processed

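The authors mapped clean paired reads to mm10 with HISAT2 and deposited raw counts of reads per gene, not normalized. Per the labels, FastQC and DESeq2 were also used. How reads were counted (tool, gene models, strand) is not given in the sources used here. Each of 20071 Ensembl IDs was used once, leaving out 92 repeats with equal counts among 20163 rows. Positions and exonic lengths came from GENCODE M21 on GRCm38 (mm10), and start sequences from RefSeq (GRCm38.p6).

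Counts were analysed with edgeR 4.0.16 in R 4.3.3 (filterByExpr, TMM, glmQLFit, glmQLFTest, no covariate), with Benjamini-Hochberg adjustment over all 13733 genes tested. Standard errors are the log2 fold change over the square root of F. A group of 3 counts or fewer per library was taken as at the floor, and floors cover counting error only. Libraries of one genotype differed by more than counting noise (chi-square per gene 2.86 to 106), so none was merged as the same library deposited again, which does not show that they came from separate mice or cultures. Alternatives were DESeq2 1.42.0, limma-voom (limma 3.58.1), other scalings and filters, a replicate block and leaving out each library. Genes named were the 10 members, the 8 chondrocyte-list genes with the smallest p and the defining chondrocyte markers. The rule also took the tested Sox family, matrilin, hyaluronan-binding and hyaluronan synthase genes, and up to 3 called genes of each other list. Plin1, Cfd, Bglap, Thy1, Ly6a, Col1a1, Sox8, Sox10, 5 macrophage markers and the uncalled genes of the protease list fall outside this rule. They were named after their values were seen, and the marker sums without Cxcl12 or Lyz2 were also chosen then. Pcif1, Xist and Ddx3y were named as checks of the labels. The members and lists were chosen with earlier results of these data known.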

Additional observations from a re-analysis of the deposited data

How the results depend on the processing

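Over the 13 alternatives, no member passed an adjusted p of 0.05 (smallest 0.14, for Sox6), and 68 of 77 values kept their direction. The exceptions were Sox9 with total-count scaling (-0.0013) and values of Sox9, Matn4 and Vcan with 1 library left out. Sox9 was then negative at -0.18, -0.020 and -0.033 (range -0.18 to 0.27). Matn4 ranged from -0.29 to 0.091 and Vcan from -0.38 to 0.0025. Hapln4 ranged from -0.23 to 0.058 and Lyve1 from -0.052 to 0.69 with 1 library left out. Sox6 could not be fitted with the filter at a mean of 10 counts. The number of chondrocyte-list genes higher at an adjusted p under 0.05 was 5 with DESeq2, 4 without the expression filter and between 1 and 8 with 1 library left out, with 8 without Pcif1fl/fl replicate 3 and 1 without knockout replicate 3, and the number lower was between 3 (without knockout replicate 1) and 7. Over all genes, leaving out 1 library gave 89 to 229 called higher and 253 to 385 called lower, and at an adjusted p alone 148 to 1544 higher and 324 to 1447 lower, the highest each without Pcif1fl/fl replicate 3. Without knockout replicates 1, 2 and 3 in turn, 91, 90 and 89 were called higher, and without Pcif1fl/fl replicate 2, 196 were higher at an adjusted p alone. The cause was not tested.

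The replicate numbers did not pair the samples (correlations of deviations for equal numbers 0.070, -0.055 and 0.003). With the replicate block, 326 genes were called lower and 126 higher, against 343 and 142, and the log2 fold changes of Sox9, Sox6 and Vcan were 0.052, 1.11 and -0.22. Depth limits Hapln1, Chad and Sox6, which had at most 14 counts in any library.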
